A study of Saccharomyces cerevisiae with 12 samples.

Results

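GRE2, GRE3, OYE2, OYE3, YNL134C, YLR108C, HSP31, FRM2, HBN1 and ADH6 are 10 of the 6216 features counted in Saccharomyces cerevisiae during exposure to concanamycin A. They were selected on function, as aldehyde, methylglyoxal and NADPH reductases, and chosen by measured values in that GRE2, YNL134C and HSP31 stood far above their 0 h counts at 1 h. Values at 1 h against 0 h are therefore given as a description. All 10 passed the filter on low counts that left 5615 features for testing, FRM2 only through its libraries at 1, 3 and 6 h.

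The 12 RNA sequencing libraries came from the laboratory strain BY4741, a haploid of mating type a in which HIS3, LEU2, MET17 and URA3 are deleted in part or whole, alike in every group. Cells grew exponentially in rich medium (YPD) and were exposed to concanamycin A, an inhibitor of the proton pump of the vacuole (V-ATPase), at 500 nM for 0, 1, 3 or 6 h, with 3 libraries a time. No library from cells held for 1, 3 or 6 h without the compound was analysed here, so effects of exposure and of time in culture cannot be told apart. Whether replicate libraries had cultures of their own is not labelled, so the spread behind each p-value is that of the samples and could be technical.

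Reactive carbonyls such as methylglyoxal, a by-product of glycolysis, attack proteins and DNA. Yeast disposes of them by reduction with NADPH or NADH, by the glutathione-dependent glyoxalases and by glutathione-independent enzymes of the DJ-1 family. Many of these genes are known targets of Yap1, a regulator activated by oxidants and electrophiles, and of Msn2 and Msn4, regulators of the general stress response. Gre2 reduces methylglyoxal and 3-methylbutanal with NADPH, Hsp31 converts methylglyoxal to lactate without glutathione, and Gre3 is an aldose reductase. YNL134C encodes an aldehyde reductase of the medium-chain family and ADH6 an NADPH-dependent alcohol dehydrogenase of broad substrate range. Oye2 and Oye3 are flavin-containing NADPH oxidoreductases (old yellow enzymes), Frm2 is a nitroreductase and Hbn1 resembles one. YLR108C does not bear out the grouping by enzyme activity, since the deposited annotation calls its product a protein of unknown function.

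Stretches upstream of 7 members are shown because GRE2, YNL134C, YLR108C and HSP31 fell from 1 h to 6 h and OYE3, FRM2 and HBN1 rose. Each runs from 370 to 121 bases before the start codon, 5′ to 3′ on the strand of the gene, in the reference genome of build R64. Capitals mark matches on either strand to 4 motifs. These are TTACTAA and TGACTAA (some of the forms bound by Yap1), AGGGG (the stress response element of Msn2 and Msn4) and TCCGNGGA (the element of the drug resistance regulators Pdr1 and Pdr3). Other forms of the Yap1 site were not searched, so a stretch without such a mark may still hold one. The stretches lie at chrXV:43324-43573 (plus strand), chrXIV:373702-373951 (minus strand), chrXII:368245-368494 (minus strand), chrIV:1502281-1502530 (minus strand), chrXVI:227492-227741 (minus strand), chrIII:75406-75655 (minus strand) and chrIII:74107-74356 (minus strand), in the order of the lines. That of FRM2 holds no match.
GRE2: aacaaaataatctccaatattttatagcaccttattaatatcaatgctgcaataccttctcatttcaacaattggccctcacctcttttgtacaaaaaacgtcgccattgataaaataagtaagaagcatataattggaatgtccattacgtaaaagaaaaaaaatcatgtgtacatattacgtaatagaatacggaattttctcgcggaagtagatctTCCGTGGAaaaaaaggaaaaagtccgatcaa
YNL134C: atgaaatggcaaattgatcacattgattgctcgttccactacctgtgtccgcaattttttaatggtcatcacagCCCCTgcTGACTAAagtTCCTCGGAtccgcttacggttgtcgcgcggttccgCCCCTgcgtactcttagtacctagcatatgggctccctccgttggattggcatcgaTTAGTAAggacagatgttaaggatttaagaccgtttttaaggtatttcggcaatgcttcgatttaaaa
YLR108C: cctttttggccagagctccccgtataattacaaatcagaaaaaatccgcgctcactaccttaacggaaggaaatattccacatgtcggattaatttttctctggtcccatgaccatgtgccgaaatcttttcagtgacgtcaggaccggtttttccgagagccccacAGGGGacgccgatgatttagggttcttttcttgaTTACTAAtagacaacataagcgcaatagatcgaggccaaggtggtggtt
HSP31: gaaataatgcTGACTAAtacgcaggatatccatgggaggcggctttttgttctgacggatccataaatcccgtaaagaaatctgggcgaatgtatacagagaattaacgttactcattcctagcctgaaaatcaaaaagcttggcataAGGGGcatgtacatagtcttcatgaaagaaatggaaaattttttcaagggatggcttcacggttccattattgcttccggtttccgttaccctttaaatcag
OYE3: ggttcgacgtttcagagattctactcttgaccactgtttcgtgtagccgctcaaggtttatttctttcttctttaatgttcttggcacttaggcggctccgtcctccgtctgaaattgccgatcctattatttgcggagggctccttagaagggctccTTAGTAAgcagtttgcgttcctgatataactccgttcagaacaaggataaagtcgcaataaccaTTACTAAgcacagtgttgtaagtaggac
FRM2: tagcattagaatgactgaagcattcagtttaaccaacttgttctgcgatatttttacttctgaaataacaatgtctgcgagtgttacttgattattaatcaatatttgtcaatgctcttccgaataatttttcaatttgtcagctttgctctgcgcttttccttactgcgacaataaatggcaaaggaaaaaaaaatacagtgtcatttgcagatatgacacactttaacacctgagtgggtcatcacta
HBN1: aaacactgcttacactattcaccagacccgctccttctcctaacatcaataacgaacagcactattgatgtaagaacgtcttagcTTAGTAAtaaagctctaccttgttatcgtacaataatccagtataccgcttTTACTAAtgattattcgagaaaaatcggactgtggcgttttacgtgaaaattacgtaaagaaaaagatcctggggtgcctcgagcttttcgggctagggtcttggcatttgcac

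Over 500 bases before the start codon, TTACTAA stood before 5 of the 10 members (OYE2, OYE3, YNL134C, YLR108C and HBN1), against 11.8% of 6000 windows of that length in the genome. TGACTAA stood before 3 (YNL134C, HSP31 and ADH6), against 5.97% of windows, and one or the other before 7, against 17%. AGGGG stood before 5 (GRE3, YNL134C, YLR108C, HSP31 and FRM2), against 34.1%, and TCCGNGGA before 2 (GRE2 and YNL134C), against 2.92%. No 2 matches overlapped within a member's window. YNL134C held all 4 motifs, and its TGACTAA began 289 bases before the start codon, 10 bases upstream of its TCCGAGGA. These letters are a description of the windows, and no binding was measured. The counts cover only the forms searched, and members outside them, GRE2 included, may hold another form of the Yap1 site. The printed stretch of GRE2 reads ttacgtaa more than once, and that of HBN1 holds it too. This sequence was not among the motifs searched, so it is unmarked and its share of windows was not counted.

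Library totals ran from 8508894 to 11008709 counts. MET17 had 0 counts, LEU2 had 8 and URA3 had 20 over all libraries, while HIS3 had 363 to 860 per library. At 6 h, replicate 1 stood apart from replicates 2 and 3 (chi-square per degree of freedom 15.6 and 21.6, against 3.23 between those 2). At 1 h, replicates 1 and 3 were at 18.6 and the other pairs at 8.38 and 4.59. The 3 h pairs were at 3.43 to 8.48. The third library at 0 h stood apart from the other 2 there (31.7 and 22.3, against 4.49 between those 2). It held the lowest 0 h level of GRE2, GRE3, OYE2, YNL134C, YLR108C, HSP31 and HBN1. On log2 CPM its difference from the mean of the other 2 ran from -0.64 (HBN1) to 0.27 (FRM2), and the median over all tested features was 0.01. Levels below are CPM (counts relative to the library's TMM-scaled total) for replicates 1, 2 and 3 in turn. "Rose" and "fell" refer to an edgeR quasi-likelihood test with Benjamini-Hochberg adjusted p under 0.05 over all 5615 features, and ± after a log2 fold change is its standard error. Comparisons with 1 h use the libraries whose high values of GRE2, YNL134C and HSP31 entered the choice, which favours a fall of these genes, so their falls from 1 h are not independent of it.

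**Figure D1:**
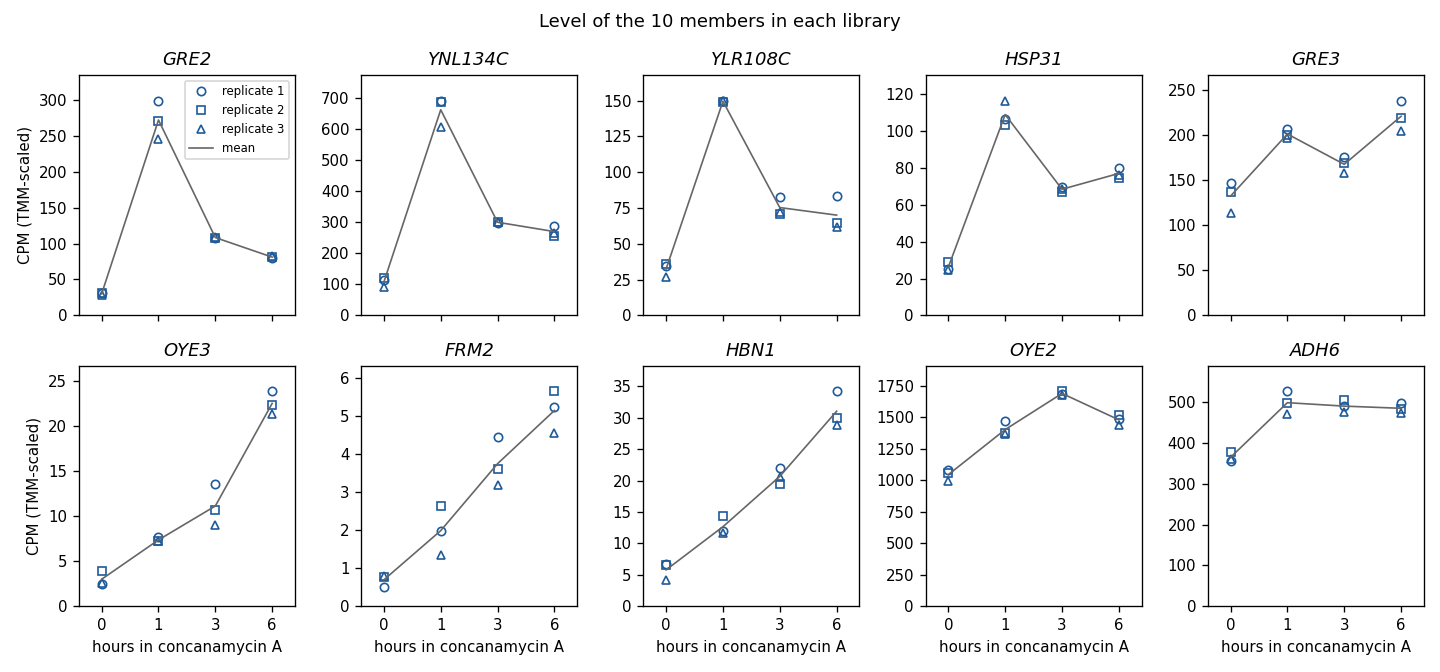
CPM of each member (vertical axis, TMM-scaled, each panel from 0) against hours in concanamycin A (the 4 times evenly spaced), with 1 symbol per library and a line through the means of 3 libraries. GRE2, YNL134C, YLR108C and HSP31 were highest at 1 h, OYE3, FRM2 and HBN1 at 6 h, and OYE2 and ADH6 moved within a narrower range.

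GRE2 (YOL151W, chromosome XV, 43694 to 44722, plus strand, a single exon) measured 31.4, 30.9 and 27.9 CPM in the 0 h libraries, 299, 271 and 246 in those of 1 h, 108, 108 and 109 in those of 3 h, then 79.3, 81.3 and 82.7 in those of 6 h. The 4 times did not overlap, and the 1 h libraries were far above all the others. Its mean at 1 h was 272 ± 26.6 CPM (SD, n = 3), a fitted 9.02-fold over 0 h, rank 4 among all increases. GRE2 then fell from 1 h to 3 h by a log2 fold change of -1.33 ± 0.07 (edgeR adjusted p = 1.58e-08) and again from 3 h to 6 h (-0.42 ± 0.07, adjusted p = 4.27e-04). Of its 1 h rise above the 0 h mean, 32.3% was left at 3 h and 21.1% at 6 h. It was still 2.69-fold above 0 h at 6 h (log2 1.43 ± 0.08, adjusted p = 2.61e-09).

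HSP31 (YDR533C, chromosome IV, 1501447 to 1502160, minus strand) measured 25.0, 28.9 and 24.8 CPM in the 0 h libraries, 107, 104 and 117 in those of 1 h, 69.9, 66.9 and 68.6 in those of 3 h, then 80.1, 74.8 and 76.3 in those of 6 h. All 3 libraries at 1 h were above every other library, and the 6 h libraries lay above the 3 h libraries. The fall from 1 h to 3 h was -0.67 ± 0.07 (edgeR adjusted p = 5.89e-06). The 3 h to 6 h value was 0.17 ± 0.07, not past the threshold (adjusted p = 0.0545). It passed at adjusted p = 0.0368 without 0 h replicate 3, 0.0441 without 0 h replicate 2, 0.0458 with a filter at 10 CPM, 0.0299 when only these times were fitted and 0.0472 with a replicate block. Of the 1 h rise, 51.0% was left at 3 h and 61.4% at 6 h.

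GRE3 (YHR104W, chromosome VIII, 323409 to 324392, plus strand) measured 146, 137 and 113 CPM in the 0 h libraries, 207, 199 and 196 in those of 1 h, 176, 168 and 158 in those of 3 h, then 238, 219 and 205 in those of 6 h. The 0 h libraries were below all others, the 3 h libraries lay between those of 0 h and 1 h, and the 6 h libraries overlapped those of 1 h. GRE3 fell from 1 h to 3 h (-0.26 ± 0.08, edgeR adjusted p = 0.0283) and rose from 3 h to 6 h (0.40 ± 0.08, adjusted p = 0.0024). The call of the fall was lost with total counts in place of TMM (adjusted p = 0.203) and without 1 h replicate 1 (0.0845), 1 h replicate 2 (0.0688), 1 h replicate 3 (0.051), 3 h replicate 2 (0.0708) or 3 h replicate 3 (0.115).

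YNL134C (chromosome XIV, 372451 to 373581, minus strand) measured 112, 119 and 90.6 CPM in the 0 h libraries, 690.4, 685 and 607 in those of 1 h, 298, 301 and 299.9 in those of 3 h, then 286, 256 and 266 in those of 6 h. The 1 h libraries were well above every other library, and the 6 h libraries lay just under those of 3 h. Its time course was near that of GRE2 at a higher level. It was 6.14-fold over 0 h at 1 h and fell from 1 h to 3 h by -1.14 ± 0.09 (edgeR adjusted p = 5.18e-07). The value for 3 h to 6 h was -0.15 ± 0.09 (adjusted p = 0.17, but 0.0347 without 0 h replicate 3 and 0.0242 when only these times were fitted). At 6 h it was 1.32 ± 0.09 above 0 h on the log2 scale (adjusted p = 2.67e-08).

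ADH6 (YMR318C, chromosome XIII, 911061 to 912143, minus strand) measured 356, 377 and 362 CPM in the 0 h libraries, 526, 499 and 472 in those of 1 h, 492, 505 and 475 in those of 3 h, then 497, 484 and 474 in those of 6 h. Every exposed library was above every 0 h library, and the 3 exposed times overlapped. It was 0.43 ± 0.05 above 0 h at 3 h and 0.41 ± 0.05 above it at 6 h (log2, edgeR adjusted p = 1.45e-05 and 1.15e-05). Its log2 fold change between exposed times was -0.02 ± 0.05 from 1 h to 3 h (adjusted p = 0.735) and -0.02 ± 0.05 from 3 h to 6 h (adjusted p = 0.819), and other settings turned these directions.

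The old yellow enzymes differed in level and in time course. OYE2 (YHR179W, chromosome VIII, 462502 to 463704, plus strand) measured 1084, 1060.1 and 993 CPM in the 0 h libraries, 1470.2, 1373 and 1367 in those of 1 h, 1689.95, 1707 and 1675 in those of 3 h, then 1485.5, 1516 and 1442 in those of 6 h. Its highest libraries were those of 3 h, and the 1 h and 6 h libraries overlapped. OYE2 rose from 1 h to 3 h (0.27 ± 0.05, edgeR adjusted p = 6.35e-04) and fell from 3 h to 6 h (-0.19 ± 0.05, adjusted p = 0.00522).

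OYE3 (YPL171C, chromosome XVI, 226169 to 227371, minus strand) measured 2.47, 3.96 and 2.55 CPM in the 0 h libraries, 7.63, 7.22 and 7.20 in those of 1 h, 13.6, 10.7 and 9.02 in those of 3 h, then 23.8, 22.3 and 21.3 in those of 6 h. Each time lay above the one before without overlap. OYE3 rose from 1 h to 3 h (0.59 ± 0.17, edgeR adjusted p = 0.0149) and from 3 h to 6 h (1.02 ± 0.15, adjusted p = 1.75e-04). Leaving out 1 h replicate 2 or 3 h replicate 1 put the first of these at adjusted p = 0.0519 or 0.0715. At 6 h it was 7.54-fold above 0 h (log2 2.91 ± 0.19, adjusted p = 1.58e-08). Its counts were low, 19 to 31 per library at 0 h and 197 to 236 at 6 h.

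Per kilobase of coding sequence, OYE2 was 268 to 438 times OYE3 in the 0 h libraries, 189.9 to 193 times at 1 h, 124 to 186 times at 3 h and 62.4 to 68.0 times at 6 h. The ratio at each time lay under that of the time before without overlap, and OYE2 remained the far larger transcript at 6 h. The pair share 81.5% of amino acids and 73.6% of coding bases. How reads that align to both were counted is not given.

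FRM2 and HBN1 lie next to each other on chromosome III, both on the minus strand (YCL026C-A, 74704 to 75285, and YCL026C-B, 73405 to 73986), 717 bases apart, and share 58.5% of amino acids. FRM2 was the lowest member, with 5, 6 and 6 counts in the 0 h libraries, 19, 27 and 14 in those of 1 h, 41, 34 and 36 in those of 3 h, then 52, 55 and 42 in those of 6 h. Each time lay above the one before in counts and in CPM. HBN1 measured 6.70, 6.51 and 4.16 CPM in the 0 h libraries, 12.02, 14.3 and 11.6 in those of 1 h, 21.9, 19.5 and 20.5 in those of 3 h, then 34.2, 30.0 and 28.9 in those of 6 h, again without overlap between consecutive times. FRM2 rose from 1 h to 3 h (0.90 ± 0.24, edgeR adjusted p = 0.0115), as did HBN1 (0.71 ± 0.13, adjusted p = 0.00138). From 3 h to 6 h HBN1 rose (0.59 ± 0.13, adjusted p = 0.0025), while FRM2 was at 0.47 ± 0.21 (adjusted p = 0.0873). At 6 h FRM2 was 7.44-fold and HBN1 5.30-fold above 0 h (adjusted p = 2.09e-06 and 1.33e-08). FRM2 passed the filter on low counts only through its later libraries. Its comparisons with 0 h are therefore not independent of the filter. Per kilobase HBN1 was 4.93 to 13.0 times FRM2 over the 12 libraries, and the ratios of all 4 times overlapped.

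YLR108C (chromosome XII, 366667 to 368124, minus strand) measured 34.7, 35.8 and 26.8 CPM in the 0 h libraries, 150.0, 149 and 149.7 in those of 1 h, 82.9, 71.2 and 71.9 in those of 3 h, then 83.4, 64.7 and 62.0 in those of 6 h. The 1 h libraries were above all others, and those of 3 h and 6 h overlapped. It fell from 1 h to 3 h by -0.99 ± 0.11 (edgeR adjusted p = 3e-05), and from 3 h to 6 h it was at -0.10 ± 0.12 (adjusted p = 0.497). YLR108C is transcribed away from AHP1, the gene of a thioredoxin peroxidase, across 656 bases. AHP1 was at 2055 ± 130 CPM at 0 h, 6009 ± 248 at 1 h, 4032 ± 47.9 at 3 h and 2882 ± 63.7 at 6 h, and fell by -0.58 ± 0.05 from 1 h to 3 h (adjusted p = 1.63e-06). From 3 h to 6 h AHP1 fell further (-0.48 ± 0.05, adjusted p = 1.08e-05).

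In the comparison of 1 h with 0 h, on which members were chosen, the libraries of all 10 were higher at 1 h without overlap, as were those of 27.5% of features tested. Fitted log2 fold changes ran from 0.42 (OYE2) to 3.17 (GRE2), and besides GRE2, YNL134C ranked 5, YLR108C 10 and HSP31 14 among increases. At 3 h all 10 were called above 0 h, against 26.3% of all features called higher (median log2 fold change of members 1.43, of all features 0.02). At 6 h again all 10 were called above 0 h, against 33.0% of features (median 1.38, of all features 0.05). These comparisons share the 0 h libraries with the one used for the choice. Without 0 h replicate 3, 10 members were again called higher at either time. The largest member change was in GRE2 at 1 h (3.17), in FRM2 at 3 h (2.43 ± 0.31, edgeR adjusted p = 3.12e-05) and in OYE3 at 6 h (2.91). The place of FRM2 is a description, as it passed the filter only through its exposed libraries.

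Between exposed times the members parted. From 1 h to 3 h, 5 members fell (GRE2, YNL134C, YLR108C, HSP31 and GRE3) against 17.6% of all features, and 4 rose (FRM2, HBN1, OYE3 and OYE2) against 16.9%. From 3 h to 6 h, a comparison that uses no library of the choice, 3 rose (OYE3, HBN1 and GRE3) against 21.0% of features, and 2 fell (GRE2 and OYE2) against 21.7%. Without 0 h replicate 3, 4 rose and 3 fell from 3 h to 6 h. Without 6 h replicate 1, 3 rose and 2 fell there. From 1 h to 6 h, 4 fell (GRE2 at -1.74 ± 0.07, YNL134C at -1.29 ± 0.09, YLR108C at -1.09 ± 0.11 and HSP31 at -0.50 ± 0.07) against 26.7%, and 3 rose (OYE3 at 1.61 ± 0.16, FRM2 at 1.37 ± 0.23 and HBN1 at 1.29 ± 0.13) against 27.2%. GRE3, OYE2 and ADH6 were not called there (0.13, 0.08 and -0.04). With total counts in place of TMM, GRE3 (0.22, adjusted p = 0.047) and OYE2 (0.16, adjusted p = 0.0221) also rose from 1 h to 6 h, 5 members in all. The highest mean was at 1 h for GRE2, YNL134C and HSP31, which the choice used, and for YLR108C and ADH6. It was at 3 h for OYE2 and at 6 h for GRE3, OYE3, FRM2 and HBN1. For ADH6 the exposed times overlapped, and with total counts its 3 h value was above that of 1 h (log2 0.096). The 6 h libraries of GRE3 overlapped those of 1 h.

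**Figure D2:**
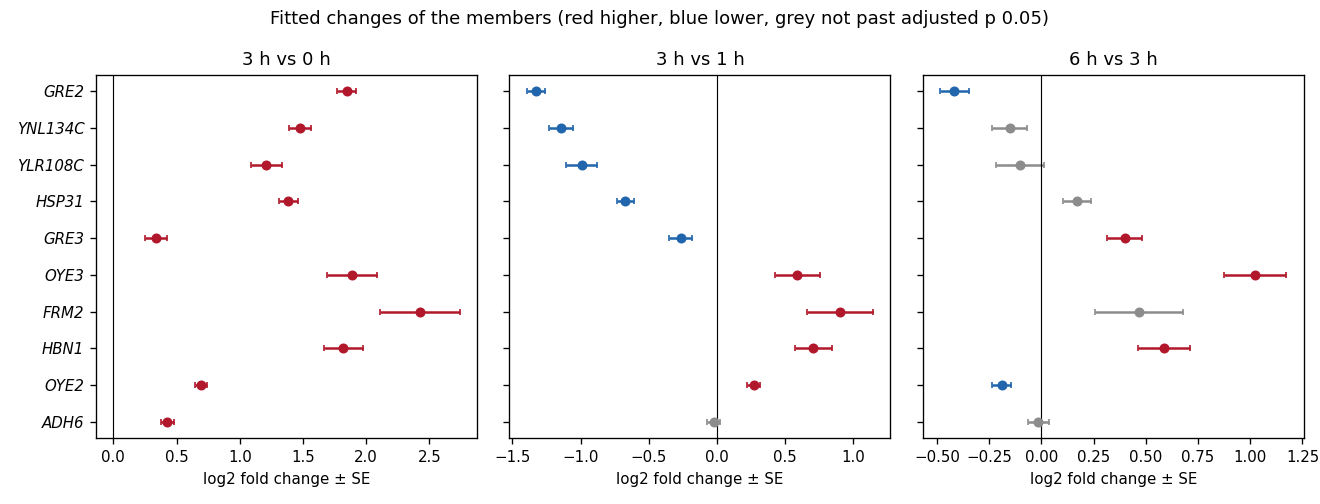
Fitted log2 fold change with its standard error (horizontal axis, bars) of each member in panels for 3 h over 0 h, 3 h over 1 h, and 6 h over 3 h. All 10 lie to the right of 0 at 3 h against 0 h, while in 3 h against 1 h 5 called members lie to the left of 0 and 4 to the right.

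Over the 12 libraries, log2 CPM of GRE2, YNL134C, YLR108C and HSP31 correlated with one another at Pearson r of 0.94 to 0.99 (6 pairs), and that of OYE3, FRM2 and HBN1 at 0.96 to 0.97 (3 pairs). Between these sets r was 0.40 to 0.68 (12 pairs). The sets were formed from the time courses, so this contrast is built in. The other 3 members lay between them. ADH6 was at r of 0.85 to 0.93 with the first set and 0.78 to 0.82 with the second. GRE3 was at 0.67 to 0.84 and 0.73 to 0.82, and OYE2 at 0.63 to 0.75 and 0.78 to 0.86. Within the first set, HSP31 had the highest r with each of these 3. The libraries are 4 times of 3 replicates, so these values describe mostly the time means. Outside the members, the 8 features most like GRE2 among 5117 with a mean of at least 10 CPM were PCS60 (r = 0.99), CAR1 (0.99), AHP1 (0.98), YME1 (0.98), LSB6 (0.98), SSA1 (0.98), ARP3 (0.98) and GFA1 (0.97). Likeness in shape did not go with likeness in size, as the mean of GRE2 went from 30.1 to 272 CPM from 0 h to 1 h and that of YME1, a mitochondrial protease, from 260.0 to 373. CAR1, the arginase, went from 103 to 554 CPM.

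Summed per kilobase, the 10 members stood at 1537 ± 79.1 CPM per kb at 0 h, 2966 ± 131 at 1 h, 2597 ± 35.9 at 3 h and 2457 ± 69.6 at 6 h (SD, n = 3). The 1 h libraries had the highest sums, 2841 to 3102, and those of 0 h the lowest, 1446 to 1585. These sums are on TMM-scaled totals. With total counts, OYE2 was at 751 CPM per kb at 0 h and 1530 at 3 h (869 and 1405 with TMM). Sums with total counts were not compared, so the order of 1 h and 3 h may depend on the scaling. OYE2 made up 56.6% ± 0.825 of the sum at 0 h, 39.3% ± 0.697 at 1 h, 54.1% ± 0.403 at 3 h and 50.1% ± 1.11 at 6 h. YNL134C went from 6.16% ± 0.570 at 0 h to 19.7% ± 0.805 at 1 h and was at 10.2% ± 0.162 and 9.70% ± 0.447 at 3 and 6 h.

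In level per kilobase, the order at 0 h was OYE2 (869 CPM per kb), ADH6 (337), GRE3 (134), YNL134C (95.05), HSP31 (36.7), GRE2 (29.2), YLR108C (22.2), HBN1 (9.95), OYE3 (2.49) and FRM2 (1.19), with no overlap between neighbours. At 1 h YNL134C (584) stood above ADH6 (461) and GRE2 (264) above GRE3 (204), again without overlap. At 3 h ADH6 (453) was again above YNL134C (265) and GRE3 (170.0) above GRE2 (105), and OYE3 and FRM2, at 9.23 and 6.44, overlapped. At 6 h YNL134C (238) overlapped GRE3 (224), and HBN1 (53.3) overlapped YLR108C (48.0). The libraries of other neighbours at 3 and 6 h did not overlap.

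**Figure D3:**
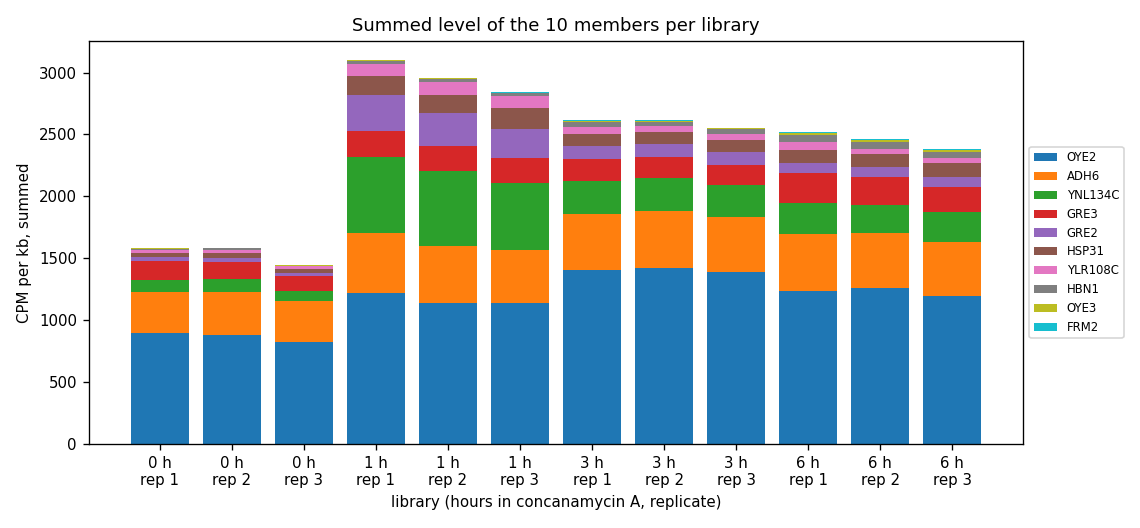
Summed CPM per kilobase of the 10 members (vertical axis, from 0) in each of the 12 libraries, with 1 colour per member. OYE2 is the largest part of every bar, and with TMM scaling the bars at 1 h are the highest, at 2841 to 3102 CPM per kb.

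Sequence relatives of the members were compared by the same fit. Gre2 shares 59.2% of amino acids with the product of YDR541C, 57.2% with Ari1, an NADPH-dependent aldehyde reductase, and 56.5% with that of YGL039W. YGL039W went from 112 ± 4.80 CPM at 0 h to 337 ± 7.52 at 1 h, 371 ± 8.54 at 3 h and 534 ± 14.5 at 6 h. It rose at 6 h against 1 h (0.67 ± 0.05, edgeR adjusted p = 1.04e-07), where GRE2 fell. ARI1 rose at 1 h against 0 h (1.04 ± 0.07, adjusted p = 6.79e-08) and was at -0.13 ± 0.07 at 6 h against 1 h (adjusted p = 0.125). YDR541C fell at 1 h (-0.48 ± 0.09, adjusted p = 6.98e-04) and was at 0.13 ± 0.09 at 6 h against 0 h (adjusted p = 0.219, but 0.43 with total counts, adjusted p = 6.92e-04).

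The YNL134C product shares 74.4% of amino acids with that of YLR460C and 73.8% with that of YCR102C. YLR460C had 4.49 ± 1.03, 14.2 ± 1.55, 9.04 ± 1.504 and 6.72 ± 0.501 CPM at 0, 1, 3 and 6 h, and rose at 1 h (1.66 ± 0.17, edgeR adjusted p = 4.74e-06) and fell from 1 h to 6 h (-1.08 ± 0.16, adjusted p = 9.32e-05). YCR102C did the same at a lower size (0.99 ± 0.19 and -0.73 ± 0.18, adjusted p = 9.16e-04 and 0.00458). Per kilobase both were far below YNL134C at every time, for instance at 12.5 and 8.78 CPM per kb at 1 h against 584. YNL134C shares 72.8% and 72.9% of coding bases with them, but YLR460C and YCR102C share 94% with each other, so reads may have been split between those 2 and their separate values are uncertain.

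YDR132C, named MRX16 in the reference annotation, encodes a protein with 41.4% identity to that of YLR108C. It went from 16.9 ± 2.92 CPM at 0 h to 26.2 ± 0.426 at 1 h (log2 0.63 ± 0.12, edgeR adjusted p = 7.07e-04), against 32.4 to 149.6 for YLR108C. ADH7, with 63.8% identity to Adh6, stood at 2.56 ± 0.800 CPM at 0 h and 1.65 ± 0.180 at 1 h (log2 -0.64 ± 0.29, adjusted p = 0.0891, but 0.023 without 0 h replicate 2). HSP32, HSP33 and SNO4, the relatives of HSP31 at 69.4% to 69.8% identity, had 0, 4 and 5 counts over all 12 libraries and were not tested. They share 98.9% to 99.4% of coding bases with one another, and how reads common to them were counted is not given.

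**Figure D4:**
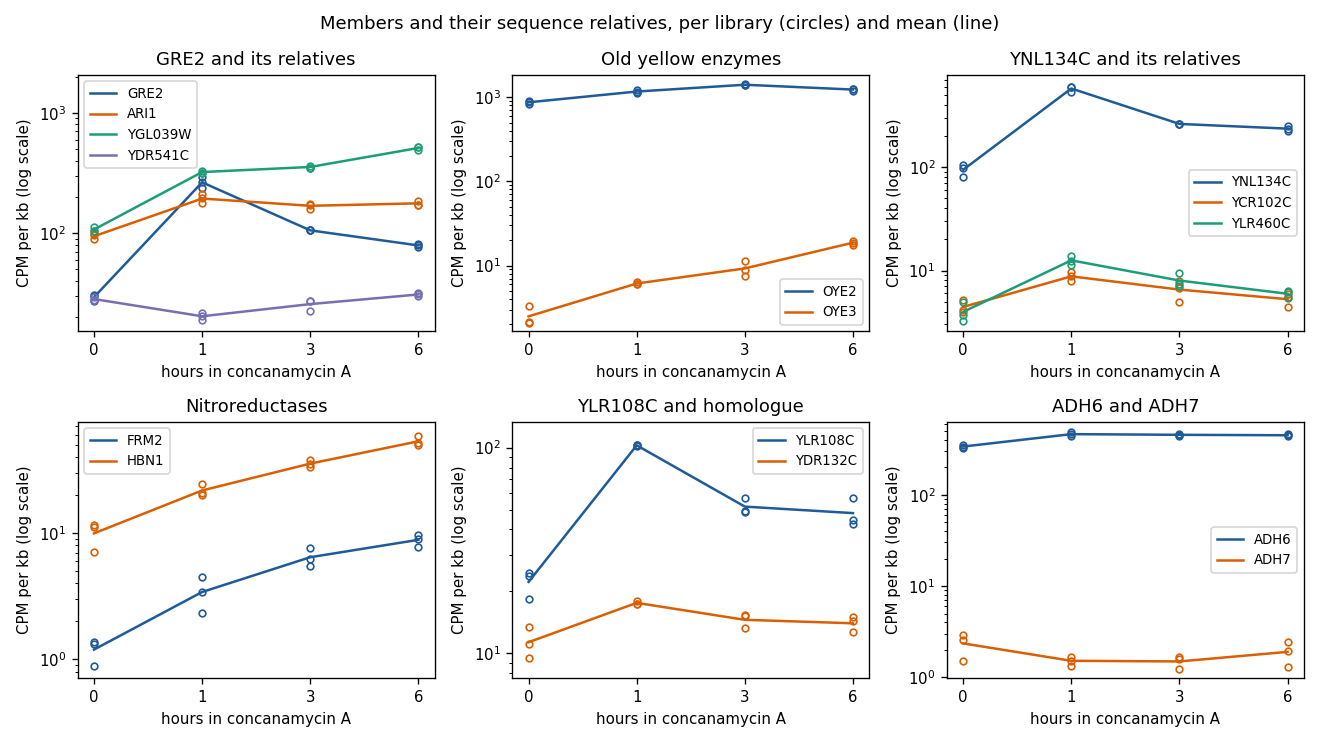
CPM per kilobase (vertical axis, log scale) against hours in concanamycin A for members and sequence relatives, with a circle per library and a line through the means. YGL039W goes on to a mean of 510.2 CPM per kb at 6 h while GRE2 falls after 1 h, and OYE2 stays far above OYE3 throughout.

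Other genes of carbonyl and NADPH metabolism were read from lists. Of all features, 24.5% were called higher and 23.4% lower at 1 h against 0 h, and 33.0% and 28.9% at 6 h. Of 5 other aldo-keto reductases, 3 rose and 0 fell at 1 h, and also 3 and 0 at 6 h, against 0 h (medians 0.62 and 0.49), and YDL124W rose by 1.17 ± 0.08 at 6 h (edgeR adjusted p = 3.17e-08) and ARA1 by 0.93 ± 0.08 (adjusted p = 3.24e-07). Short-chain reductases rose in 3 of 8 cases and fell in 2 at 1 h, and rose in 4 and fell in 1 at 6 h (medians 0.16 and 0.43), while with total counts 4 rose and 1 fell, then 7 rose and 1 fell. Of 16 tested medium-chain enzymes 5 rose and 5 fell at 1 h, and 3 rose and 2 fell at 6 h (medians -0.19 and 0.10). With total counts 5 rose and 2 fell at 1 h, and 10 rose and 1 fell at 6 h (medians 0.02 and 0.40). Among them the quinone reductase relative ZTA1 rose at 6 h (1.45 ± 0.11, adjusted p = 1.09e-07), and ADH1, the main fermentative alcohol dehydrogenase, fell (-1.05 ± 0.05, adjusted p = 1.45e-09).

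GLO1, the gene of the glutathione-dependent glyoxalase I, rose from 314 ± 26.2 CPM at 0 h to 502 ± 8.57 at 1 h (0.68 ± 0.06, edgeR adjusted p = 6.54e-07). GLO1 then fell to 281 ± 2.61 CPM at 3 h (-0.84 ± 0.06 against 1 h, adjusted p = 2.49e-07). Of the 3 tested genes in its list, 1 rose and 1 fell at 1 h, and 0 rose and 2 fell at 6 h (medians -0.06 and -0.15, but 0.15 at both times with total counts). Of 6 aldehyde dehydrogenases, 0 rose and 2 fell at 1 h and 1 rose and 1 fell at 6 h (medians -0.33 and 0.31), while with total counts 2 rose and 1 fell, then 4 rose and 1 fell (medians -0.12 and 0.60). ALD6, a cytosolic source of NADPH and acetate, fell from 1091 ± 211 CPM at 0 h to 540.2 ± 29.5 at 3 h (-1.01 ± 0.11, adjusted p = 8.8e-06). It then rose to 1242 ± 69.9 at 6 h (1.20 ± 0.11 over 3 h, adjusted p = 7.4e-06), where it was at 0.19 ± 0.11 against 0 h (adjusted p = 0.144). Genes of NADPH supply rose in 5 of 16 cases and fell in 4 at 1 h, and rose in 7 and fell in 6 at 6 h (medians 0.04 and 0.15). With total counts 9 rose and 2 fell, then 10 rose and 3 fell (medians 0.25 and 0.45). TKL2, a minor transketolase, rose at 6 h (2.99 ± 0.21, adjusted p = 3.43e-08), as did GND2, a minor phosphogluconate dehydrogenase (1.60 ± 0.18, adjusted p = 4.77e-06). The main isoforms, named after their values were seen, had lower values at 6 h, which depended on the scaling. TKL1 went from 1983 to 1478 CPM (-0.42 ± 0.05, adjusted p = 4.98e-06, but -0.12 and 0.0642 with total counts), and GND1 from 1167 to 1018 CPM (-0.20 ± 0.04, adjusted p = 5.17e-04, but 0.10 and 0.0484 with total counts).

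Of 16 targets of Yap1 outside the members, 13 rose and 0 fell at 1 h against 0 h (median 0.81), and 7 rose and 5 fell at 6 h (median 0.10, with 11 higher and 2 lower under total counts). From 1 h to 6 h 1 rose and 12 fell (median -0.85), against 27.2% and 26.7% of all features. The list was chosen with earlier results known, so these counts are not independent of that choice. SRX1, the sulfiredoxin, went from 5.39 ± 0.739 CPM at 0 h to 51.7 ± 2.54 at 1 h (3.25 ± 0.11, edgeR adjusted p = 8.8e-11). At 3 h it was lower, at 24.0 ± 0.671 CPM, and still above 0 h (2.14 ± 0.11, adjusted p = 4.6e-09). GTT2, a glutathione transferase, rose at 6 h (1.71 ± 0.10, adjusted p = 7.09e-09), and CCP1, cytochrome c peroxidase, fell (-1.56 ± 0.09, adjusted p = 3.8e-09).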

How the data were processed

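The authors deposited counts that are whole numbers, not normalized, 1 per feature and library. The libraries were stranded and made from total RNA depleted of rRNA, per the labels' protocols. STAR 2.5.2b, featureCounts 1.5.1 and genome build R64 are named in the submitters' processing notes. Which annotation release was used, how strand was set and how multiply aligned reads were counted is not given in the sources used here. No member overlaps another annotated gene. Of its lines, 6216 name a feature and 3 are blank and were dropped. Columns were matched to samples by the identifier in their second header line.

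Counts were fitted with edgeR 4.0.16 in R 4.3.3 (robust quasi-likelihood, filterByExpr, TMM factors of 0.843 to 1.11) over all 12 libraries, with 8 residual degrees of freedom and no block. The factors differed by time. They were 0.843 to 0.881 at 0 h and 0.995 to 1.01 at 1 h. At 3 h they were 1.07 to 1.11, and at 6 h 1.03 to 1.09. Benjamini-Hochberg adjustment ran over 5615 features, separately for each comparison. Standard errors were derived from the log2 fold change and its F statistic. No pair of replicate libraries agreed within sampling noise. CPM per kb divides CPM by the coding length. Log2 CPM for correlations used a prior count of 2. Relatives are proteins with at least 40% identity by blastp 2.17.0 on translated coding sequences. Motifs were searched on both strands in 500 bases before the start codon.

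The members and the 10 gene lists were chosen with earlier results of these data known. Besides the members and their relatives, the rule for named genes took up to 3 genes per list with the largest called change and a mean of at least 10 CPM, of which the text prints part, and the 8 features most correlated with GRE2. The YLR108C neighbour AHP1 is among these 8. Of 95 listed genes 94 were found. Alternatives were total counts, RLE factors, nuclear reading frames only, DESeq2 1.42.0, other filters, fits of only the groups compared, and leaving out each library. Low counts limit the precision for FRM2 and OYE3.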

Additional observations from a re-analysis of the deposited data

How the results depend on the processing

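Members called higher or lower stayed within 1.5 times of the reported count in every comparison and alternative run, except that 5 in place of 3 were higher from 1 h to 6 h with total counts in place of TMM. A filter at 10 CPM left FRM2 out. Scaling moved the counts over all features: with total counts, 3576 were higher and 498 lower at 3 h against 0 h (1474 and 1377 with TMM), 3278 and 809 at 6 h against 0 h (1855 and 1620), 2575 and 602 at 1 h against 0 h (1375 and 1315), and 1734 and 552 from 1 h to 3 h (951 and 986). The share of calls that were higher thus went from 51.7% to 87.8%, 53.4% to 80.2%, 51.1% to 81.1% and 49.1% to 75.9% in that order, and from 50.4% to 64.2% from 1 h to 6 h. The median log2 fold change of all features moved to 0.35, 0.34, 0.21, 0.13 and 0.10 in these comparisons. Of 945 values of members in the tested comparisons, 924 kept their direction and side of the threshold. Sizes were not judged there. With total counts, log2 fold changes at 1 h against 0 h were 3.38 (GRE2), 2.27 (HSP31), 0.81 (GRE3), 0.66 (ADH6) and 0.64 (OYE2). With TMM they were 3.17, 2.06, 0.60, 0.45 and 0.42 in that order. Levels per kilobase moved too, as for ADH6 at 0 h (337 to 291) and at 3 h (453 to 493). Changes of direction were small. From 1 h to 3 h, ADH6 was at 0.096 with total counts, and at -0.064 to 0.015 with single libraries left out. From 1 h to 6 h it was at 0.045 with total counts. From 3 h to 6 h it was at -0.036 to 0.0096 with single libraries left out, and at 0.0038 without 6 h replicate 3. GLO2 at 3 h against 0 h, at -0.33 with TMM, was at 0.0037 with total counts. Counts of 5 to 6 per library limit FRM2 at 0 h.

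Replicate numbers are not in the labels, and the column headers carry the letters A, B and C. Deviations of libraries with the same letter correlated at -0.08 to 0.46 over 18 pairs (median 0.32), against a median of -0.11 over 36 pairs with different letters, and 9 of 12 libraries correlated best with their own letter. This is a hint of pairing from the data, not from the labels. As not every pair exceeded 0.1, the reported fit has no block. A replicate block on them, chosen after seeing the data, left 10 members higher at 3 h and at 6 h, 4 higher and 5 lower from 1 h to 3 h, and 3 higher and 4 lower from 1 h to 6 h. From 3 h to 6 h it gave 4 higher and 2 lower, with HSP31 added at adjusted p = 0.0472. Over all features from 1 h to 3 h it called 2366 in place of 1937.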

Other observations

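Among 12 regulators known to act on such genes, 7 rose and 3 fell at 1 h against 0 h (median log2 fold change 0.27, and 8 and 0 with total counts). At 6 h against 0 h, 7 rose and 2 fell (median 0.45, and 9 and 0 with total counts). CAD1, a relative of YAP1, went from 57.5 ± 7.83 to 106 ± 3.05 CPM at 6 h (0.88 ± 0.09, edgeR adjusted p = 1.22e-06). MSN2 rose from 60.1 ± 2.21 to 96.4 ± 0.275 CPM at 6 h (0.68 ± 0.06, adjusted p = 4.03e-07). STB5, an activator of NADPH-supply genes whose own gene lies 971 bases upstream of OYE2 on the same strand, went from 17.9 ± 2.81 CPM at 0 h to 32.4 ± 2.86 at 3 h (0.87 ± 0.11, adjusted p = 2.57e-05).

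The aryl-alcohol dehydrogenase family, of which 5 genes were tested, had 1 gene higher and 0 lower at 1 h and 2 higher and 0 lower at 6 h against 0 h (medians 0.24 and 0.00). Of all features, 24.5% and 33.0% were called higher at these times. With total counts 3 were higher and 0 lower at 1 h, then 2 and 0 at 6 h (medians 0.46 and 0.30). AAD6 went from 19.6 ± 2.67 to 35.2 ± 2.88 CPM at 6 h (0.84 ± 0.13, edgeR adjusted p = 8.51e-05). The members of this family resemble one another, and reads could be shared between them.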
